A study of Mus musculus with 24 samples.

Results

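The subject is a set of 10 genes that mark Sertoli cells or encode the factors by which these cells nurse the germ line: Sox9, Amh, Gata4, Wt1, Gdnf, Kitl, Fshr, Inha, Inhbb and Dhh. They were chosen by name, with earlier results of these data known. All 10 were present among the 23177 genes of the Zbtb16 table and the 21688 genes of the Sox3 table. RNA was sequenced from spermatogonia of mice at postnatal day 7, enriched with magnetic beads as THY1+ undifferentiated spermatogonia (uSPG) or KIT+ differentiating spermatogonia (dSPG). In the Zbtb16 set, Zbtb16 null mice (luxoid) were compared with WT littermates. In the Sox3 set, Sox3 cKO mice, in which floxed Sox3 is removed by Ddx4-Cre, were compared with their WT littermates. All animals were on the C57BL/6J background, the testes of 3 mice were pooled for each isolation, and each of the 8 groups held 3 libraries, 24 in all. Ddx4-Cre acts in germ cells, so the Sertoli cells of the Sox3 cKO keep their own Sox3 locus, whereas the luxoid mutation is present in every cell of the Zbtb16 null animal.

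Sertoli cells are the somatic cells of the seminiferous tubule and enclose all germ cells. SOX9, GATA4 and WT1 are transcription factors that establish and maintain Sertoli identity. The secreted products act in different directions: GDNF keeps undifferentiated spermatogonia in the stem cell state through RET and GFRA1, KIT ligand (Kitl) acts on KIT of differentiating spermatogonia, DHH signals to Leydig and peritubular cells through PTCH1, AMH acts through AMHR2, and the inhibin subunits encoded by Inha and Inhbb form inhibin B, which restrains FSH release. FSHR is the receptor through which FSH reaches the Sertoli cell. In the testis Sox9, Amh, Fshr and Dhh are largely restricted to Sertoli cells, but Inha and Gata4 are also expressed by Leydig cells, Gdnf by peritubular myoid cells and Kitl by other somatic cells.

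The sorts target germ cells, and the genes described here are known from somatic cells. In bulk samples such as these, a change in the number of Sertoli cells and a change in RNA per Sertoli cell cannot be told apart. The libraries of the Zbtb16 set held an estimated 25950000 to 35190000 mapped reads. In the Sox3 set the 4 libraries of replicate 1 held 28250000 to 31890000 reads, and the 8 libraries of replicates 2 and 3 held 11020000 to 14920000 reads. The sorting markers followed the fraction labels in the Zbtb16 set and in the Sox3 cKO libraries but not in the WT libraries of the Sox3 set. There, mean Thy1 was 3.83 FPKM under the KIT+ label but 0.240 FPKM under the THY1+ label, and mean Kit was 15.3 and 57.9 FPKM in the same order. FPKM counts sequenced fragments, scaled to transcript length and to library depth. These 6 libraries are called WT labelled THY1+ and WT labelled KIT+ throughout. The targeted genes followed the genotype labels, with mean Zbtb16 at 52.1 FPKM in WT and 17.1 FPKM in null THY1+ cells, and Sox3 between 0 and 0.082 FPKM in the cKO libraries against 6.28 to 24.4 FPKM in WT.

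The promoter sequences are shown for Gdnf, Inhbb and Dhh, because Gdnf had the largest difference among the 10 genes between the fractions of the Zbtb16 set, in WT and null, and Inhbb and Dhh moved with other Sertoli genes. The windows are the 250 bases before the RefSeq start on GRCm38.p6, written 5′ to 3′ on the gene's strand. RefSeq start windows were found for 6 of the 10 genes, and Sox9, Amh, Gata4 and Wt1 are named only. Gdnf had 2 starts. The window at chr15:7809798-7810047 (+) lies upstream of the annotated Gdnf transcripts, the window at chr15:7813477-7813726 (+) lies in an intron of Gdnf, and the windows at chr1:119422249-119422498 (-) and chr15:98898541-98898790 (-) lie just upstream of Inhbb and Dhh. Capitals mark matches, on either strand, to AGGTCA, the core recognised by many nuclear receptors, to the GATA core written AGATAA or TGATAA, and to the GC box CCGCCC.
Gdnf start 1: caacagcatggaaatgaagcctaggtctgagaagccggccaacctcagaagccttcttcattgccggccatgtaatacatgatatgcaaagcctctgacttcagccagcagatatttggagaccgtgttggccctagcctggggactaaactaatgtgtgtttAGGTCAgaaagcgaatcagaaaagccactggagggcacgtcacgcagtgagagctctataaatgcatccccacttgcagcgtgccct
Gdnf start 2: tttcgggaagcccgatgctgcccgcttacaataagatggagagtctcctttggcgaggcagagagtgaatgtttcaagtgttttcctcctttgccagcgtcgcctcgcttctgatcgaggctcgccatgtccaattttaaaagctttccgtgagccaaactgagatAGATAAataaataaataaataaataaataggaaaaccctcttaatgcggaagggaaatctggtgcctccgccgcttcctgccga
Inhbb: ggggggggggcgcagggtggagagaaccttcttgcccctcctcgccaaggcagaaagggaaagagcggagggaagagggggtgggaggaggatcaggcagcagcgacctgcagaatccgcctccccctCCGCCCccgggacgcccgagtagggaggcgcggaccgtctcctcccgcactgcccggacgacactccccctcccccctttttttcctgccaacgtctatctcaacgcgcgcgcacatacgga
Dhh: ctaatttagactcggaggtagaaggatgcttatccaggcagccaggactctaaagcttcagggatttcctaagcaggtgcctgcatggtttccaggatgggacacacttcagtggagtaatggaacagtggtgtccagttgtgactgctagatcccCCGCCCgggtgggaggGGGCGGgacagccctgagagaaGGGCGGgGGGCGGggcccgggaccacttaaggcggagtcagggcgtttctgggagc
The window of Gdnf start 1 held AGGTCA with its first base at -87, and that of start 2 held AGATAA at -84. The Inhbb window held CCGCCC at -122, and the Dhh window held it at -94 and, on the opposite strand, at -78, -56 and -49. The windows of Inhbb and Dhh were 68.0% and 59.6% GC, against 50.8% and 46.8% for the Gdnf starts. Of all 32851 RefSeq windows of this length, 14.0% held AGGTCA, 7.9% TGATAA and 32.7% CCGCCC, and 3281 windows held AGATAA. A match is a description of the letters and not a measured binding site.

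Ordered by level in WT THY1+ cells of the Zbtb16 set, the niche and hormone factors Kitl and Inha came first, at 7.68 ± 2.41 and 7.58 ± 1.39 FPKM (SD, n = 3), followed by the transcription factor Gata4 at 6.16 ± 1.40 FPKM. These 3 genes did not differ beyond their spread. Wt1 (2.58 ± 0.539 FPKM), Amh (2.37 ± 1.15), Inhbb (2.16 ± 0.721) and Dhh (1.98 ± 0.575) formed a middle tier that also overlapped. Sox9 (0.874 ± 0.454 FPKM), Fshr (0.736 ± 0.136) and Gdnf (0.629 ± 0.194) were lowest and overlapped each other. FPKM is scaled to transcript length, which allows only a rough comparison of these levels between genes. In WT KIT+ cells Inha (24 ± 8.21 FPKM) and Gata4 (12.6 ± 5.15) led, and Gdnf stood at 3.92 ± 2.35 FPKM, next to Wt1 (4.61 ± 0.555) and Amh (3.49 ± 1.44), from which it did not differ beyond its spread. Sox9, Fshr and Gdnf rested on an estimated 45 to 158, 23 to 79 and 44 to 1226 reads per library of the Zbtb16 set and on 34 to 141, 14 to 69 and 41 to 559 reads in the Sox3 set. Amh rested on 62 to 298 reads in the Zbtb16 set and 72 to 260 in the Sox3 set.

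**Figure D1:**
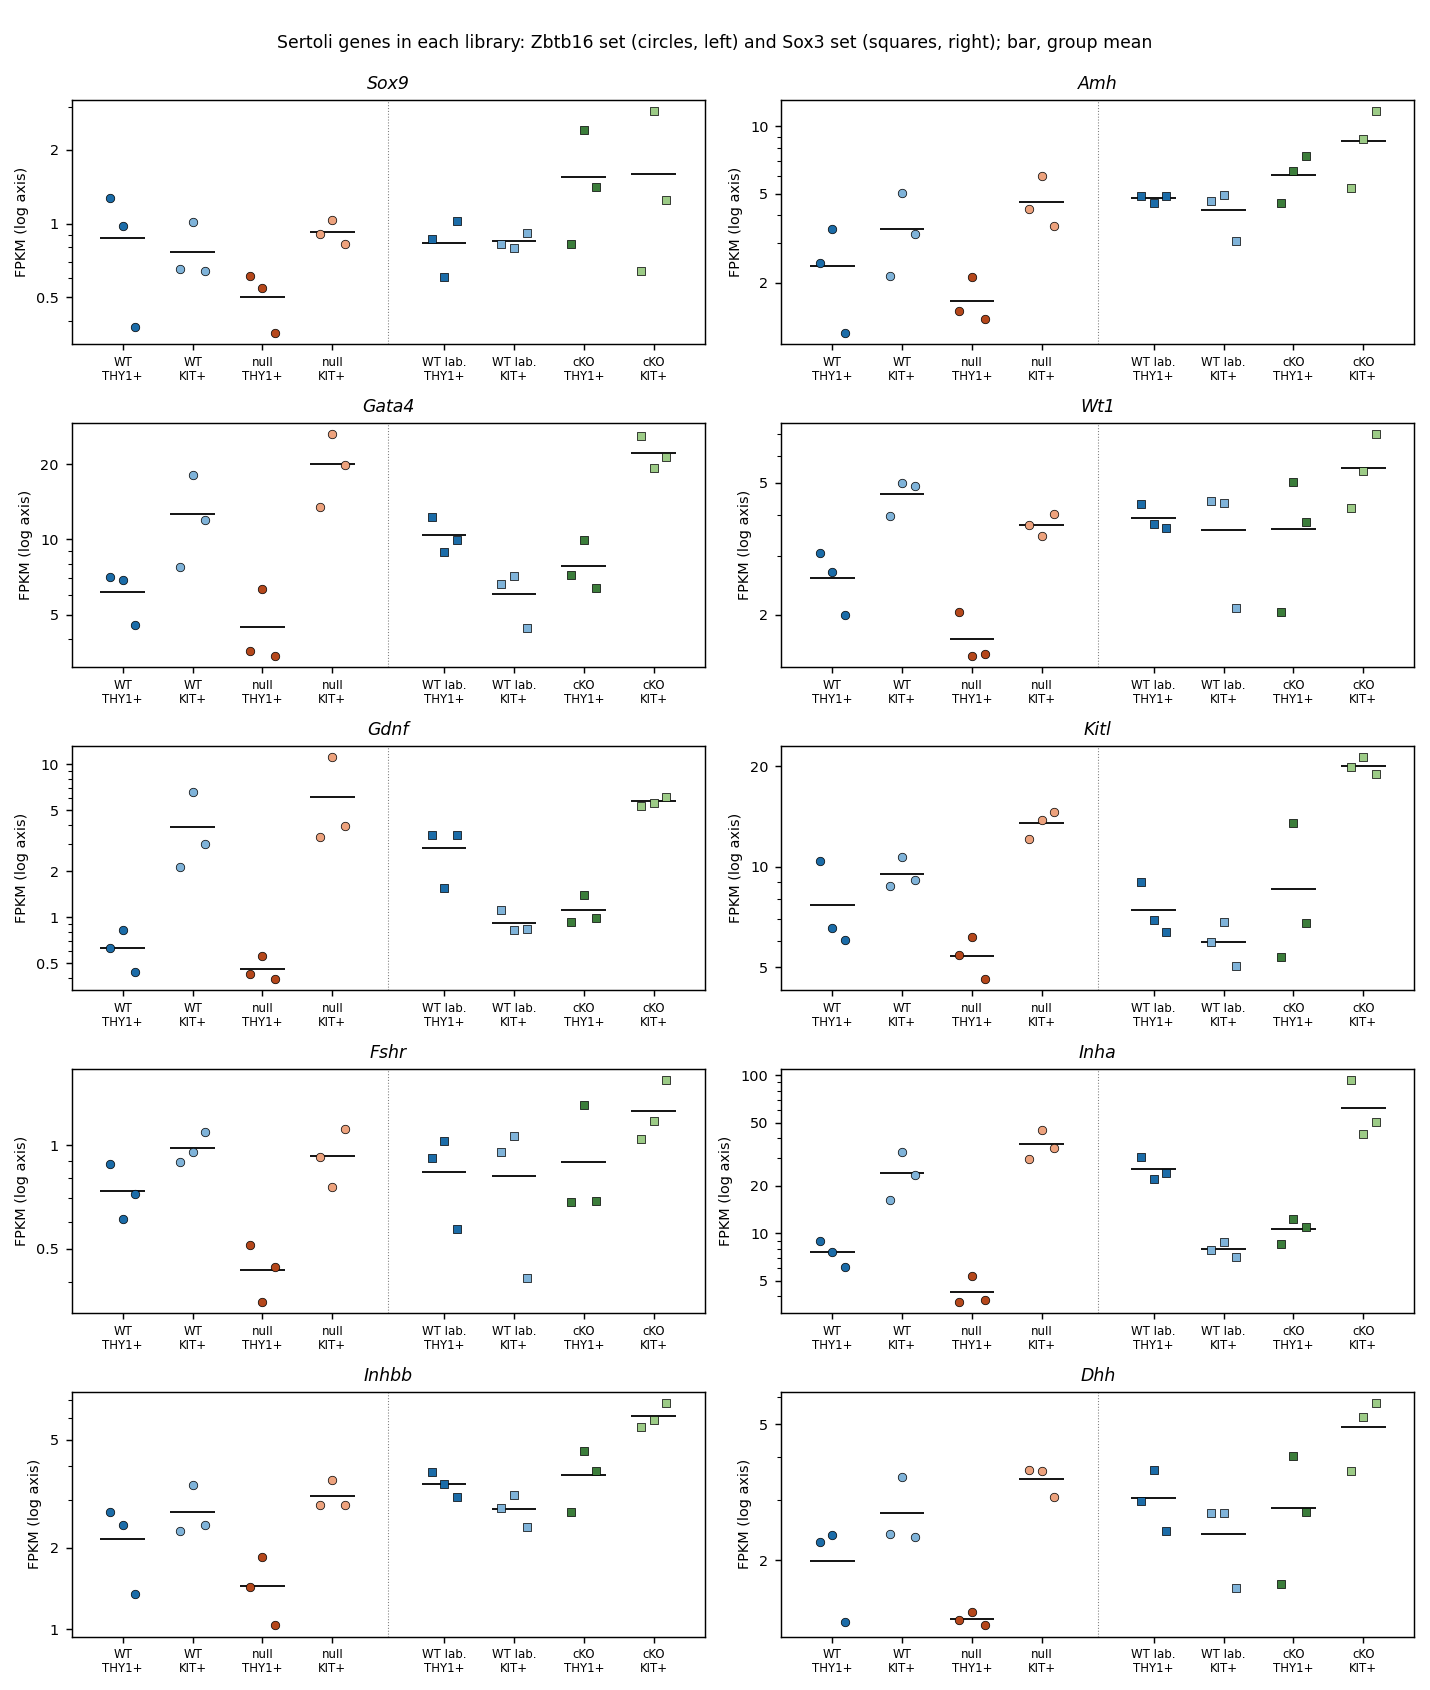
FPKM (log axis) of each Sertoli gene in all 24 libraries, with circles for the Zbtb16 set, squares for the Sox3 set and bars for group means (n = 3). Gdnf, Inha and Gata4 separate the fractions most widely, whereas Sox9 in the WT fractions overlaps, from 0.378 to 1.27 FPKM in THY1+ and from 0.639 to 1.01 FPKM in KIT+ cells.

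The first comparison asked how the Sertoli transcripts are divided between the WT fractions of the Zbtb16 set. Gdnf, Inha and Wt1 were higher in KIT+ than in THY1+ cells, and the other 7 genes did not pass the test. Gdnf (ENSMUSG00000022144, chr15:7810846-7837575, + strand of GRCm38) measured 0.625, 0.825 and 0.436 FPKM in the WT THY1+ libraries of replicates 1, 2 and 3 and 2.14, 6.58 and 3.03 FPKM in the KIT+ libraries. The fractions did not overlap, and the spread within KIT+ cells was wide. The log2 difference was 2.34 ± 0.47 (SE, adjusted p = 0.00324, limma with Benjamini-Hochberg adjustment over all genes).

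Inha (ENSMUSG00000032968, chr1:75507077-75510366, +), the common alpha subunit of the inhibins, measured 8.94, 7.63 and 6.16 FPKM in THY1+ and 16.1, 32.5 and 23.2 FPKM in KIT+ cells. Its log2 difference was 1.61 ± 0.25 (SE, adjusted p = 0.000743). Wt1 (ENSMUSG00000016458, chr2:105126529-105173616, +) measured 3.06, 2.69 and 2.0 FPKM in THY1+ and 3.97, 4.97 and 4.89 FPKM in KIT+ cells, with a log2 difference of 0.83 ± 0.18 (adjusted p = 0.00558). The groups did not overlap for these genes, nor for Gata4 and Fshr, while 42.7% of all genes tested had groups that did not overlap, 18.5% with KIT+ higher. Gata4 (ENSMUSG00000021944, chr14:63198922-63271692, -) measured 7.06, 6.88 and 4.55 FPKM against 7.76, 18 and 11.9 FPKM, a log2 difference of 0.96 ± 0.34 that fell just short of the threshold (adjusted p = 0.0565). It passed without WT KIT+ replicate 1 (adjusted p = 0.024), without null THY1+ replicate 2 or null KIT+ replicate 1, and with median-ratio scaling.

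In all, 3 of the 10 genes were called higher, where a call required 1.5-fold or more together with an adjusted p no higher than 0.05. Among all 22374 genes tested, 21.2% were called, 7.21% higher and 14% lower in KIT+ cells. The median log2 difference was 0.52 over the 10 genes and -0.03 over all genes tested. Sox9 (ENSMUSG00000000567, chr11:112782224-112787760, +) measured 1.27, 0.974 and 0.378 FPKM in THY1+ and 0.653, 1.01 and 0.639 FPKM in KIT+ cells, where the groups overlapped and the log2 difference was -0.06 (adjusted p = 0.917). WT THY1+ replicate 3 was the lowest WT library for Sox9, Amh, Inhbb and Dhh alike. Without WT THY1+ replicate 1 the Sox9 difference was 0.25, so it has no settled sign. The remaining differences were 0.58 for Amh, 0.47 for Dhh, 0.38 for Fshr and 0.35 for both Kitl and Inhbb.

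In the Zbtb16 null, 9 of the 10 genes were called higher in KIT+ than in THY1+ cells, and for all 10 the fractions did not overlap. Among all genes 29.2% were called, 13.2% higher, and for 48.6% the fractions did not overlap, 21.3% with KIT+ higher. The median log2 difference was 1.30 for the 10 genes. Gdnf measured 0.425, 0.559 and 0.392 FPKM in null THY1+ and 3.34, 11.2 and 3.98 FPKM in null KIT+ cells. As in WT, KIT+ replicate 2 was the highest library. The log2 difference of Gdnf was 3.29 ± 0.47 (SE, adjusted p = 0.000232).

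Inha measured 3.66, 5.37 and 3.8 FPKM in null THY1+ and 29.6, 45.2 and 34.7 FPKM in null KIT+ cells, a log2 difference of 3.06 ± 0.25 (adjusted p = 6.49e-06). Gata4 measured 3.59, 6.35 and 3.41 FPKM against 13.5, 26.3 and 19.9 FPKM, a difference of 2.14 ± 0.34 (adjusted p = 0.000528). Kitl (ENSMUSG00000019966, chr10:100015630-100100416, +), which did not pass in WT at 10.4, 6.55 and 6.03 FPKM against 8.75, 10.7 and 9.12 FPKM, measured 5.43, 6.15 and 4.60 FPKM in null THY1+ and 12.1, 13.8 and 14.6 FPKM in null KIT+ cells. For Kitl the null fractions were clearly apart, whereas the WT fractions overlapped. Its log2 difference in the null was 1.32 ± 0.19 (adjusted p = 0.000273).

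Amh, Dhh and Fshr, which are largely restricted to Sertoli cells, also differed in the null. Amh (ENSMUSG00000035262, chr10:80805243-80807648, +) measured 1.49, 2.12 and 1.38 FPKM in null THY1+ and 4.26, 5.97 and 3.60 FPKM in null KIT+ cells (log2 difference 1.41 ± 0.38, adjusted p = 0.0124). Dhh (ENSMUSG00000023000, chr15:98891152-98898540, -) measured 1.34, 1.41 and 1.29 FPKM against 3.67, 3.64 and 3.06 FPKM, with little spread within either group (1.29 ± 0.22, adjusted p = 0.000862). Fshr (ENSMUSG00000032937, chr17:88984952-89200675, -) measured 0.512, 0.349 and 0.441 FPKM against 0.927, 0.757 and 1.11 FPKM (0.95 ± 0.20, adjusted p = 0.00262). The difference of Wt1 was 1.11 and that of Inhbb (ENSMUSG00000037035, chr1:119415465-119422248, -) 1.09, and Sox9, at 0.78, did not pass (adjusted p = 0.0967) but did with the replicate number as a block (adjusted p = 0.0324). The call of Amh was lost without null KIT+ replicate 2, when its difference was 1.21, and that of Fshr with a pseudocount of 1.

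**Figure D2:**
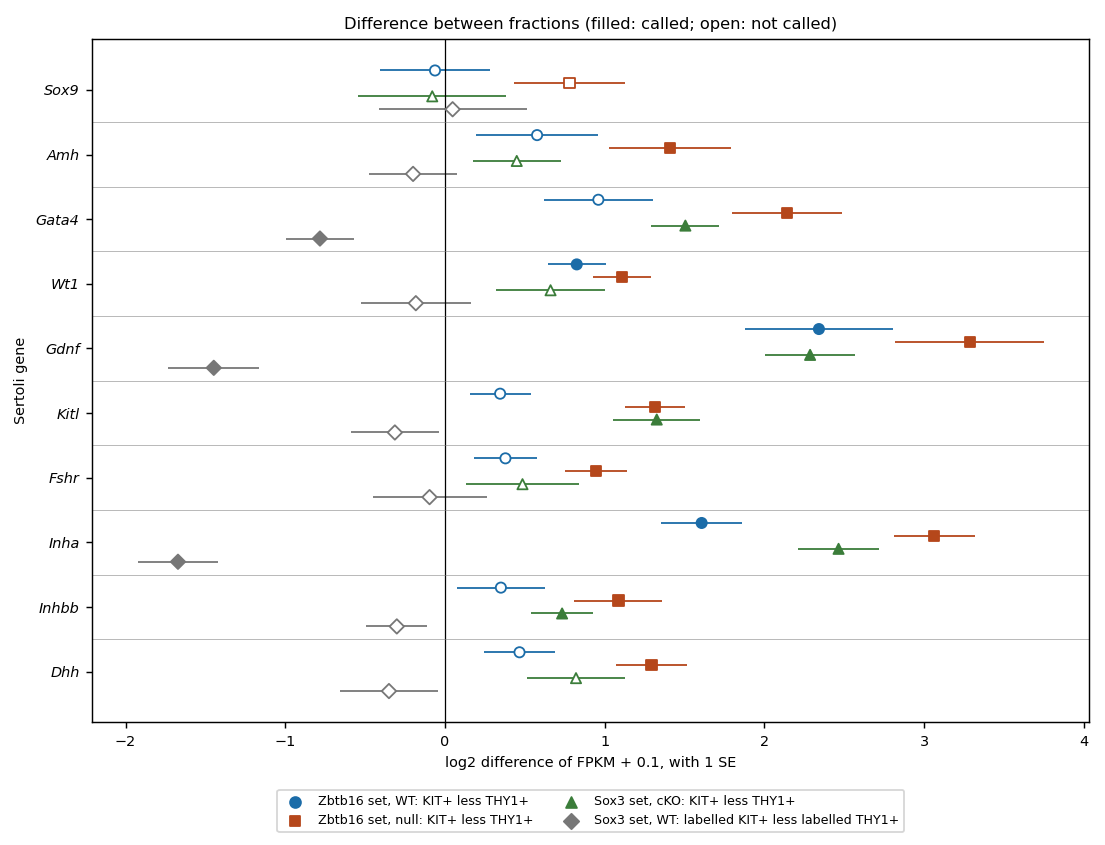
Log2 difference of FPKM + 0.1 between fractions for each Sertoli gene in the 4 genotype groups, with 1 SE and filled symbols for calls. Gdnf, Inha and Gata4 lie farthest from 0 in the null and the cKO, and the WT libraries of the Sox3 set fall on the other side of 0 for these genes.

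In the Sox3 cKO, 5 genes were called higher in KIT+ than in THY1+ cells, where 22.7% of all 21212 genes were called, 10.5% higher. Inha measured 8.55, 12.4 and 11 FPKM in cKO THY1+ and 93.1, 42.4 and 50.9 FPKM in cKO KIT+ cells (log2 difference 2.46 ± 0.25, adjusted p = 2.86e-05). Gdnf measured 0.937, 1.40 and 0.994 FPKM against 5.39, 5.64 and 6.16 FPKM (2.29 ± 0.28, adjusted p = 0.000119). Every KIT+ library was above every THY1+ library for both genes. The fractions did not overlap for 5 of the 10 genes, against 44.5% of all genes, 21.7% with KIT+ higher.

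Gata4 measured 7.19, 9.90 and 6.39 FPKM in cKO THY1+ and 26, 19.3 and 21.3 FPKM in cKO KIT+ cells (1.51 ± 0.21, adjusted p = 0.000296), and Kitl measured 5.39, 13.5 and 6.81 FPKM against 19.9, 21.3 and 19.0 FPKM (1.33 ± 0.27, adjusted p = 0.00385). The fifth gene was Inhbb, the beta B subunit, with a log2 difference of 0.73 ± 0.19 (adjusted p = 0.0139), which lost its call without cKO THY1+ replicate 1 or cKO KIT+ replicate 3. The THY1+ replicate 2 library was the highest of its group for 9 of the 10 genes, all but Amh. Sox9 measured 0.828, 2.41 and 1.41 FPKM in cKO THY1+ and 0.642, 2.88 and 1.25 FPKM in cKO KIT+ cells, so the replicates differed far more than the fractions (log2 difference -0.08). With the more shallowly sequenced replicates 2 and 3 alone, Inha, Gdnf and Gata4 kept their calls. Dhh, at 0.82, was called in addition with the replicate number as a block (adjusted p = 0.038).

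In the WT libraries of the Sox3 set the direction followed the sorting markers and not the labels. Inha was lower in WT labelled KIT+ (7.83, 8.86 and 7.09 FPKM) than in WT labelled THY1+ (30.6, 22.2 and 24 FPKM), with a log2 difference of -1.67 (adjusted p = 0.00056). Gdnf measured 1.11, 0.821 and 0.831 FPKM against 3.46, 1.55 and 3.48 FPKM (-1.45, adjusted p = 0.00306) and Gata4 6.62, 7.12 and 4.43 FPKM against 12.2, 8.92 and 9.97 FPKM (-0.78, adjusted p = 0.0185). The call of Gata4 was lost without WT labelled THY1+ replicate 1 or WT labelled KIT+ replicate 3. The other 7 differences lay between -0.35 and 0.05. Of all genes 19.7% were called, 6.53% lower in the libraries labelled KIT+.

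Other cell types also moved between the fractions. Leydig cells, which make testosterone in the interstitium, were followed by 8 genes, and all 8 were called higher in WT KIT+ than in WT THY1+ cells of the Zbtb16 set, with a median log2 difference of 3.88. Their summed level was 89.5 to 129 FPKM in WT THY1+, 1227 to 2292 in WT KIT+, 56.1 to 84.6 in null THY1+ and 2061 to 3140.3 FPKM in null KIT+ libraries. In the Sox3 set it was 84.4 to 119 FPKM in cKO THY1+, 2510.3 to 4960 in cKO KIT+, 1254 to 2024 in WT labelled THY1+ and 70.8 to 117 FPKM in WT labelled KIT+ libraries. The summed level of the 10 Sertoli genes was 24.1 to 39.7, 47.1 to 86.7, 18.2 to 26.2 and 74.9 to 115 FPKM in WT THY1+, WT KIT+, null THY1+ and null KIT+ libraries, and the ranges of the fractions did not overlap in either genotype. The part of Leydig cells in the differences of Gdnf, Inha, Gata4 and Kitl was not tested.

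The libraries with high Leydig levels were those with high Kit, so Leydig level and sorted fraction cannot be told apart here. They held Gdnf at 1.55 to 11.2 FPKM, and the libraries with low Leydig levels held it at 0.392 to 1.40 FPKM, with no overlap. Inha was apart as well, at 16.1 to 93.1 and 3.66 to 12.4 FPKM. The share of all genes apart in this way was not counted. Between the fractions of single genotypes it was 40.6% to 48.6%. Inhbb overlapped between the same libraries, at 2.29 to 6.81 and 1.03 to 4.52 FPKM, and so did Sox9, at 0.604 to 2.88 and 0.357 to 2.41 FPKM.

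**Figure D3:**
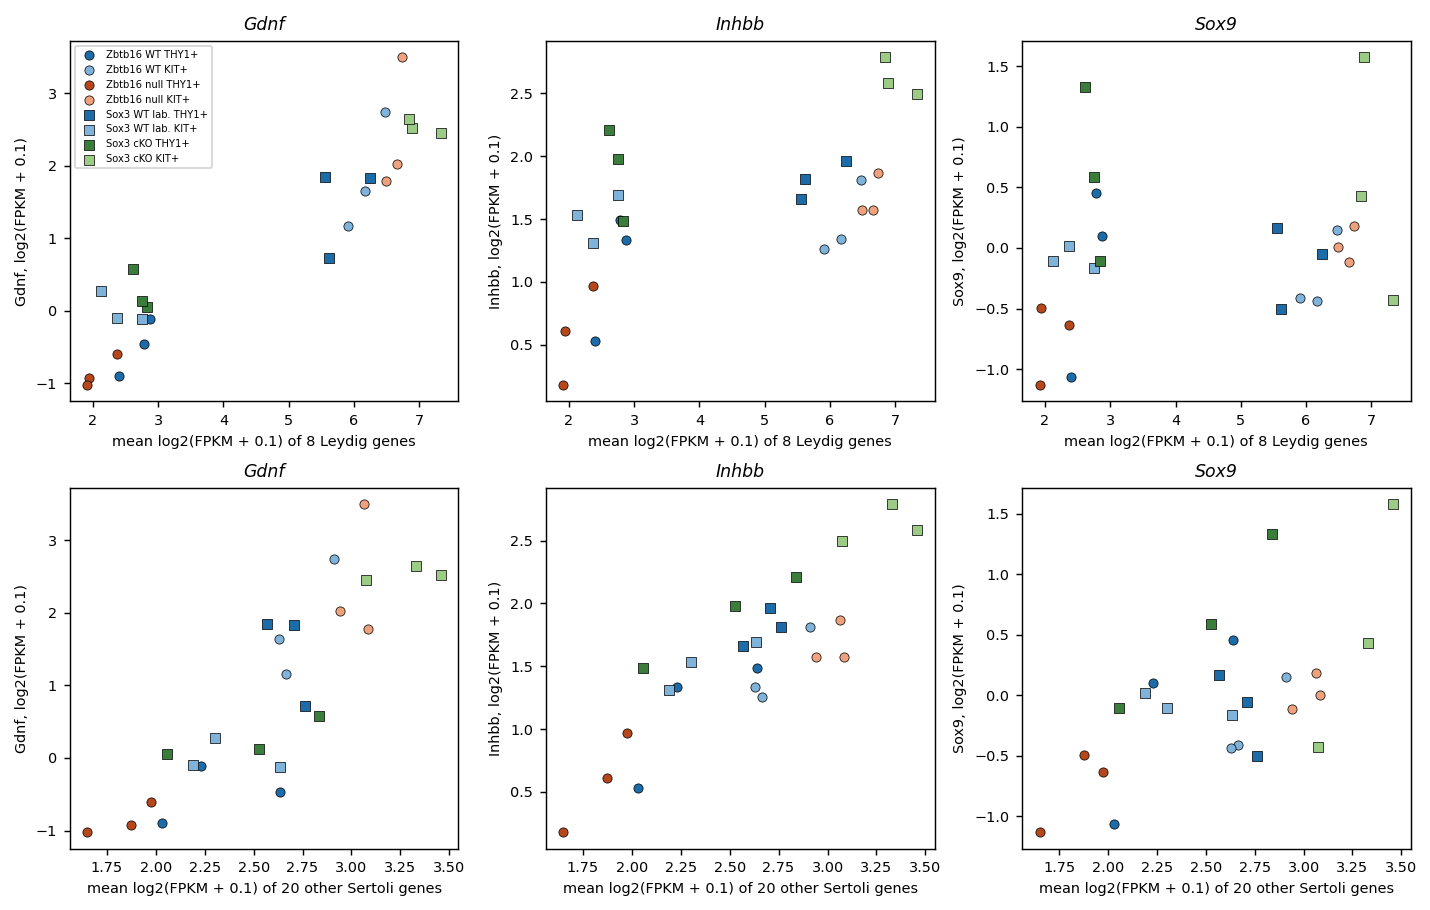
Log2(FPKM + 0.1) of Gdnf, Inhbb and Sox9 in each of the 24 libraries against the mean log2 level of 8 Leydig genes (top) and of 20 other Sertoli genes (bottom). The libraries form separate clusters on the Leydig axis, which are also those with high and with low Kit. Gdnf is above 1.5 FPKM only in the high cluster, and Sox9 spans a similar range in both clusters.

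A further 20 genes known from Sertoli cells, none of them among the 10, gave a yardstick for the cell type. In WT, 7 of the 20 were called higher and 2 lower in KIT+ cells, with a median log2 difference of 0.44, and in the null 13 were called higher and 2 lower, with a median of 1.28. The list did not move as a block in WT: Aldh1a1, a retinaldehyde dehydrogenase, had a difference of 3.41 and Defb19, a defensin, 3.07, whereas Trf, the iron carrier transferrin, had -3.56 and Rhox5, a homeobox gene, -1.33. In the cKO, 6 were called higher and 2 lower (median 0.62). The mean difference of the 20 genes was then subtracted, to read each of the 10 genes against these 20. The result is not a level within Sertoli cells, since Gdnf, Inha, Gata4 and Kitl are also expressed by other cells. Pearson's r with the Leydig mean over the 24 libraries was 0.968 for Inha, 0.935 for Gdnf, 0.895 for Gata4 and 0.759 for Kitl. With the mean of the other Sertoli genes it was 0.893, 0.859, 0.898 and 0.920 in that order. A high r with the Leydig mean was not particular to these genes. It was 0.765 for Dhh, 0.755 for Inhbb, 0.704 for Wt1, 0.648 for Amh, 0.593 for Fshr and 0.218 for Sox9. These r span libraries with high Thy1 and with high Kit, and r within each kind was not computed. With the mean of the peritubular and stromal genes, r was -0.152 for Inha, -0.160 for Gdnf, 0.074 for Gata4 and 0.208 for Kitl. Values were centred within each set. The part of Leydig or peritubular cells was not tested.

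Relative to the other Sertoli genes, Gdnf and Inha remained higher in KIT+ cells in all 3 comparisons in which the labels and markers went together. In WT the relative log2 difference of Gdnf was 1.90 (adjusted p = 0.00221) and that of Inha 1.17 (adjusted p = 0.000498). In the null they were 2.09 (adjusted p = 0.000284) and 1.87 (adjusted p = 1.53e-06), and Gata4 was also higher, by 0.95 (adjusted p = 0.00553). In the cKO, Inha was higher by 1.65 (adjusted p = 9.48e-05), Gdnf by 1.47 (adjusted p = 0.000616) and Gata4 by 0.69 (adjusted p = 0.0248), and Sox9 was lower, at -0.89 (adjusted p = 0.0377). As measured, Sox9 was at -0.08, while the mean of the 20 other Sertoli genes rose by 0.81. Against this yardstick 60.7% of all genes were called lower in the cKO, so the Sox9 call is not a fall of Sox9 itself.

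The 6 remaining genes, Amh, Dhh, Inhbb, Fshr, Kitl and Wt1, did not pass in any of the 3 comparisons when the mean of the 20 genes was the yardstick. In WT, Dhh was at 0.03 and Kitl and Inhbb at -0.09, and the relative difference nearest to the threshold was that of Kitl in the cKO (0.51, adjusted p = 0.0661). Against this yardstick 36.1%, 83.9% and 63.6% of all genes were called in WT, null and cKO, and 2.38%, 2.09% and 2.88% were called higher, while 60.7% were called lower in the cKO. In the cKO the count of 4 fell to 2 without cKO THY1+ replicate 3 or without cKO KIT+ replicate 1. In the WT libraries of the Sox3 set, where 20.9% of genes were called and 2.53% lower, Inha was at -1.37 (adjusted p = 0.00129) and Gdnf at -1.14 (adjusted p = 0.0111) in the libraries labelled KIT+, and 1 of these calls was lost without WT labelled THY1+ replicate 1 or 3, or without WT labelled KIT+ replicate 2. Centred on the median in place of the mean of the 20 genes, 5 of the 10 genes were called in WT and 6 in the null. Of all 22374 genes, 3846 and 11218 were then called.

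**Figure D4:**
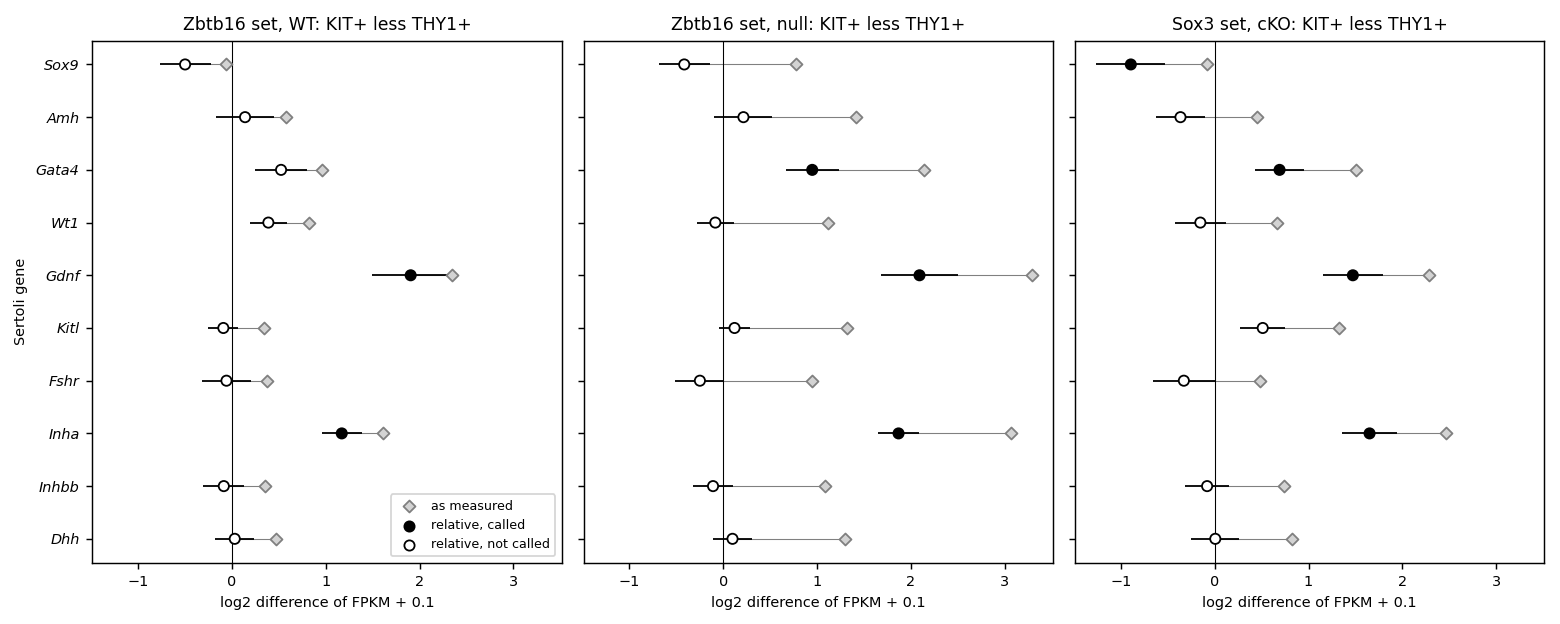
Log2 difference between KIT+ and THY1+ cells for each Sertoli gene as measured (diamonds) and relative to 20 other Sertoli genes (circles with 1 SE, filled where called). After subtraction, Gdnf and Inha stay above 1 in WT, null and cKO, and Dhh and Inhbb fall near 0.

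The remaining lists showed what else differed between the fractions beside the Sertoli genes. Macrophage genes were called lower in KIT+ cells for 10 of 10 genes in WT (median log2 difference -7.94), in the null (-6.64) and in the cKO (-7.60), and their sum fell from 956 to 1072 FPKM in WT THY1+ to 6.60 to 9.17 FPKM in WT KIT+ libraries. T cell genes were called lower for 6 of 8 genes in WT and in the null, and for 7 of 8 in the cKO. Peritubular and stromal genes were called lower for 6 of 12 genes in WT (median -1.03), for 1 in the null, where 1 was higher (0.05), and for 1 in the cKO (-0.35). Endothelial genes were called lower for 1 of 8 genes in WT, higher for 3 and lower for 1 in the null, and higher for 6 in the cKO. Germ cell genes were called lower for 1 of 8 genes in WT (median -0.24), 6 in the null (-0.65) and 3 in the cKO (-0.53). The part of these cells in the Sertoli differences was not tested.

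The partners of the Sertoli factors were followed as well. Among 10 other niche ligands in WT, Wnt6 was higher in KIT+ cells (log2 difference 1.35) and the chemokine Cxcl12 lower (-1.51). In the null, 4 were higher, namely Wnt6 (2.68), Bmp4 (1.13), Jag1 (1.11) and Vegfa (1.05). Among 16 receptors and targets of the factors, the GDNF receptor genes Ret and Gfra1 were lower in KIT+ cells, by -2.81 and -2.60 in WT and by -2.74 and -2.71 in the null. Gdnf itself was thus higher in the fraction in which its receptor genes were lower. The AMH receptor gene Amhr2 was higher in KIT+ cells, by 1.0 in WT and 2.18 in the null. In WT 3 of the 16 were called higher and 2 lower, in the null 7 and 2, and in the cKO 6 and 4. Smo and Gli1, a transducer and a target of hedgehog signalling, were higher in null KIT+ cells by 1.23 and 1.18.

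The comparison of genotypes asked whether the Sertoli transcripts depend on Zbtb16. In THY1+ cells all 10 genes were lower in the null by their point estimates, from -0.36 for Gdnf to -0.82 for Inha, and limma called none of them, with 4 at an unadjusted p under 0.05. Of all genes 3.98% were called, 1.26% lower, and 23.8% had an unadjusted p under 0.05. Inha measured 8.94, 7.63 and 6.16 FPKM in WT and 3.66, 5.37 and 3.8 FPKM in null THY1+ cells (log2 difference -0.82, 95% interval -1.37 to -0.26, adjusted p = 0.0871). Fshr measured 0.878, 0.608 and 0.721 FPKM against 0.512, 0.349 and 0.441 FPKM (-0.64, -1.07 to -0.22, adjusted p = 0.0813). For these 2 genes the genotypes did not overlap, and for the other 8 they did. Among all genes 29.5% had genotypes that did not overlap, 14.1% with the null lower. With the replicate number as a block, both were called (adjusted p = 0.0207 for Inha and 0.0251 for Fshr), where 8.85% of all genes were called.

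The other Sertoli genes lay at a median of -0.55 in the same comparison, with 1 of 20, Aldh1a1 (-0.73), called lower, and the Leydig genes at -0.73 with none called. Germ cell genes were positive for 8 of 8, with a median of 0.32 and none called, and their sum was 1053 to 1227 FPKM in WT and 1229.9 to 1534 FPKM in null THY1+ libraries. Stromal, endothelial, macrophage and T cell genes had medians of -0.60, -0.44, -0.77 and -0.43, with 1 macrophage gene called lower. The median was -0.51 over the 10 genes. Relative to the other Sertoli genes limma called none of the 10, none had an unadjusted p under 0.05, and 20.9% of all genes were called. As measured, 1 gene was called without WT THY1+ replicate 3.

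In KIT+ cells limma called none of the 10 genes between null and WT, with 2 at an unadjusted p under 0.05, against 17.3% of all genes, and 0.259% of all genes were called. The point estimates were positive for 8 genes. Gata4 was at 0.69 (95% interval -0.06 to 1.44, adjusted p = 0.324), Inha at 0.64 (0.08 to 1.2, adjusted p = 0.244) and Kitl at 0.50 (0.08 to 0.92, adjusted p = 0.232), and for Kitl the genotypes did not overlap, as for 17.5% of all genes. Wt1 and Fshr were at -0.29 and -0.08. The intervals of Gdnf (-0.44 to 1.61), Amh (-0.40 to 1.28), Gata4, Inha and Sox9 leave room for more than 2-fold, so the 3 libraries per group do not bound these genes closely. The medians were 0.39 for the 10 genes, 0.41 for the other Sertoli genes, 0.53 for Leydig, 0.69 for stromal and -0.16 for germ cell genes, with none called in any list.

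The difference between the fractions was set against genotype as an interaction. All 10 genes had a larger KIT+ to THY1+ difference in the null than in WT, by 0.29 for Wt1 to 1.46 ± 0.36 (SE) for Inha on the log2 scale, but none was called by limma (Inha adjusted p = 0.0938, Kitl 0.97 with adjusted p = 0.101, Dhh 0.83 with adjusted p = 0.163, Gata4 1.18 with adjusted p = 0.185). At an unadjusted p under 0.05 there were 4 of the 10 and 22.4% of all genes, and 0.0313% of all genes were called. Without a block, the greater number of calls in the null than in WT is thus not shown to be a difference between the genotypes. With the replicate number as a block, these 4 genes were called (adjusted p = 0.0187 for Inha, 0.0377 for Kitl, 0.0395 for Dhh and 0.0368 for Gata4), where 12.3% of all genes were called. The interaction thus turns on whether the replicate numbers pair the libraries, and across its 4 groups the correlation of same-numbered libraries ran from -0.0656 to 0.636. The medians of the interaction were 0.84 for the 10 genes, 0.79 for the other Sertoli genes, 1.33 for Leydig and -0.45 for germ cell genes. Without null KIT+ replicate 1, 1 gene was called. Relative to the other Sertoli genes limma called none of the 10 in the interaction or in the KIT+ comparison of genotypes, with 1 gene each at an unadjusted p under 0.05, where 39.4% and 0.103% of all genes were called. The interaction gained 1 relative call without WT KIT+ replicate 2 or null KIT+ replicate 1.

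**Figure D5:**
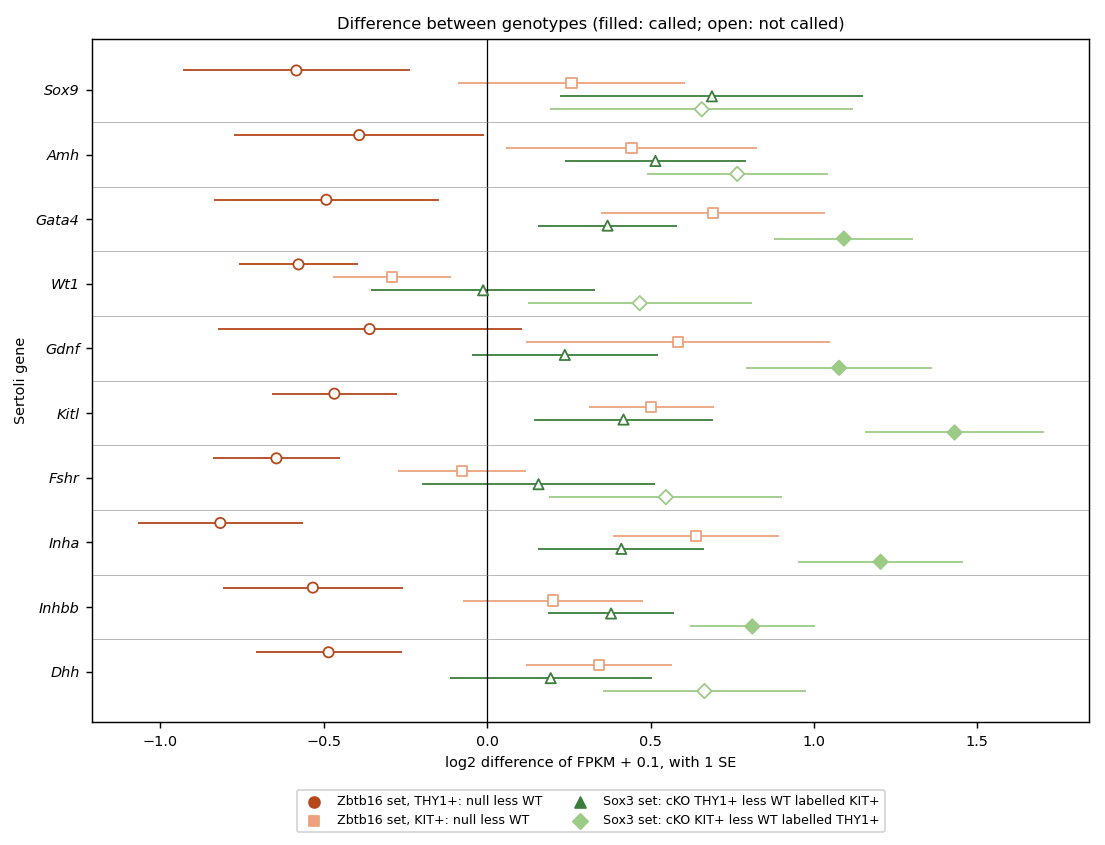
Log2 difference of FPKM + 0.1 between genotypes for each Sertoli gene, with 1 SE and filled symbols for calls. In the Zbtb16 set all THY1+ values lie below 0 and no value was called, and in the Sox3 set the comparison of cKO KIT+ with WT labelled THY1+ holds the 5 calls.

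For Sox3 the genotypes were compared in 3 ways, because the markers of the WT libraries go against their labels. Averaged over both fractions, which gives the same value whichever way the WT groups are read, 6 of the 10 genes were higher in the cKO. Of all genes 10.3% were called, 7.49% higher. Kitl was higher by 0.92 ± 0.19 (SE, adjusted p = 0.00754), Inha by 0.81 ± 0.18 (adjusted p = 0.00958), Gata4 by 0.73 ± 0.15 (adjusted p = 0.00703), Gdnf by 0.66 ± 0.20 (adjusted p = 0.0349), Amh by 0.64 ± 0.20 (adjusted p = 0.0351) and Inhbb by 0.60 ± 0.14 (adjusted p = 0.0104). Sox9 at 0.67 (adjusted p = 0.154), Dhh at 0.43, Fshr at 0.35 and Wt1 at 0.23 did not pass.

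The calls were not equally firm. Kitl, Inha and Gata4 kept theirs whichever of the 12 libraries was left out. Amh lost its call in 9 of the 12 cases, Gdnf in 8 and Inhbb in 5. Over 7 other settings Gdnf lost its call in 2, Gata4, Amh and Inhbb in 1 each, and Kitl and Inha in none. The count fell to 3 without WT labelled KIT+ replicate 3, without cKO THY1+ replicate 2 or 3, or without cKO KIT+ replicate 3.

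Between groups that carry the same sorting markers, the difference was found in the cells with high Kit. In cKO KIT+ against WT labelled THY1+ libraries, 5 genes were called higher, where 17% of all genes were called, 12.4% higher. Kitl measured 19.9, 21.3 and 19.0 FPKM in cKO KIT+ and 9.02, 6.93 and 6.39 FPKM in WT labelled THY1+ libraries (log2 difference 1.43 ± 0.27, adjusted p = 0.00541). Inha measured 93.1, 42.4 and 50.9 FPKM against 30.6, 22.2 and 24 FPKM (1.2 ± 0.25, adjusted p = 0.00769). No cKO value of either gene reached down to the WT range, and cKO replicate 1 was far above the others for Inha. The groups did not overlap for 7 of the 10 genes, against 40% of all genes, 22.8% with the cKO higher.

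Gata4 was higher by 1.09 ± 0.21 (adjusted p = 0.00566) in the same comparison, Gdnf by 1.08 ± 0.28 (adjusted p = 0.0193) and Inhbb by 0.81 ± 0.19 (adjusted p = 0.0122). Inhbb measured 5.55, 5.90 and 6.81 FPKM against 3.8, 3.42 and 3.06 FPKM, a narrow spread in both groups. Amh measured 5.29, 8.78 and 11.7 FPKM against 4.88, 4.55 and 4.89 FPKM, where the groups did not overlap but the cKO libraries spread widely (0.77, adjusted p = 0.0649). The call of Gdnf was lost without WT labelled THY1+ replicate 2, when its difference was 0.71, and without cKO KIT+ replicate 3. Dhh (0.66), Sox9 (0.66), Fshr (0.55) and Wt1 (0.47) did not pass.

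In the cells with high Thy1, cKO THY1+ against WT labelled KIT+, limma called none of the 10 genes, none had an unadjusted p under 0.05, against 13.2% of all genes, and 0.0707% of all genes were called. The differences ran from -0.01 for Wt1 to 0.69 for Sox9. The 95% intervals were -0.04 to 0.80 for Inhbb, -0.10 to 0.83 for Gata4, -0.14 to 0.97 for Inha and -0.18 to 1.02 for Kitl. The difference between the 2 same-marker effects, a contrast added after the data were seen, was 1.01 for Kitl (adjusted p = 0.316), 0.84 for Gdnf, 0.79 for Inha and 0.72 for Gata4. It was called for none of the 10 genes, with 3 at an unadjusted p under 0.05 against 12.8% of all genes, nor for any of the 21212 genes, so the effect is not shown to be limited to the cells with high Kit.

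Read as labelled, the cKO differences of Inha and Gdnf took opposite signs in the fractions. Inha and Gdnf were lower in cKO THY1+ than in WT labelled THY1+ libraries, by -1.26 (adjusted p = 0.00255) and -1.21 (adjusted p = 0.00617), where 29.1% of all genes were called and 11.3% lower. In KIT+ libraries as labelled 7 genes were higher, where 25.1% were called and 12.4% higher, led by Inha (2.88), Gdnf (2.52) and Gata4 (1.87). Each of these comparisons sets libraries with high Thy1 against libraries with high Kit.

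Marker genes of some other cell types also differed in the cKO. In cKO KIT+ against WT labelled THY1+ libraries, 5 of 20 other Sertoli genes were called higher and none lower (median 0.50, against 0.79 for the 10 genes), among them Aldh1a1 (1.30) and Clu (1.05). Of the Leydig genes 5 of 8 were higher (median 1.30), of the stromal genes 3 of 12 (0.78), of the endothelial genes 5 of 8 (0.97) and of the macrophage genes 4 of 10 (0.39). T cell genes gave no call, and 3 of 8 germ cell genes were lower (-0.53), with a summed level of 758 to 1035 FPKM in cKO KIT+ and 1295 to 1425 FPKM in WT labelled THY1+ libraries. The part of these cells in the cKO differences was not tested. Relative to the other Sertoli genes only Kitl was called, at 0.82 (adjusted p = 0.0132), where 37.4% of all genes were called and 1.49% higher, and this call was lost without WT labelled THY1+ replicate 3 and joined by another without cKO KIT+ replicate 2. In the same relative terms limma called none of the 10 in the averaged comparison (20.6% of all genes called, 2 of the 10 at an unadjusted p under 0.05), in cKO THY1+ against WT labelled KIT+ (0.0471%, none) or in the same-marker difference (0.0236%, none). The averaged comparison gained 1 or 2 relative calls without replicate 1 of either WT group, cKO THY1+ replicate 1 or 3, or cKO KIT+ replicate 2 or 3.

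Of the 16 receptors and targets of the Sertoli factors, 8 were called higher in the same comparison, 1 was called lower and 7 were not called. Tgfbr3, which encodes the inhibin co-receptor betaglycan, was higher by 1.51, and the DHH pathway genes Hhip, Ptch1 and Gli1 were higher by 1.31, 1.16 and 1.1, while Dhh itself did not pass. Acvr2b, an activin receptor gene, was lower, at -0.82. Of 10 other niche ligands 5 were higher, among them Nrg1 (1.56), Wnt6 (1.25), Bmp4 (1.09) and Csf1 (1.02). Averaged over the fractions, 7 of the 16 receptors and targets, 4 of 10 niche ligands, 3 of 20 other Sertoli genes, 4 of 8 Leydig, 3 of 12 stromal and 3 of 8 endothelial genes were higher, 1 germ cell gene was lower, and no macrophage or T cell gene was called.

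The likeness of profiles was described over the 24 libraries by Pearson's r, after centring within each set, among 15862 genes with a mean of at least 1 FPKM in both sets. The points share libraries, and the libraries fall into those with high Thy1 and those with high Kit, so r is given over all and within the 12 of each kind. Gdnf was most like Scarb1 (r = 0.976 over all, 0.719 among libraries with high Thy1 and 0.92 among those with high Kit), Pcolce (0.972, 0.718 and 0.916) and Fdxr (0.969, 0.724 and 0.876). Scarb1 encodes a receptor for high-density lipoprotein and Fdxr the reductase that supplies electrons to mitochondrial steroid-making enzymes. For Gdnf the likeness was weaker within the libraries with high Thy1 than over all.

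Kitl was most like Sorbs2 (0.98, 0.949 and 0.983), Ccbe1 (0.968, 0.951 and 0.948) and Myo6 (0.963, 0.901 and 0.962), and here the values within each kind stayed near those over all. Amh was most like Ltbp3 (0.924, 0.928 and 0.882), Obsl1 (0.918, 0.889 and 0.883) and Lama1 (0.895, 0.896 and 0.837), which encodes a laminin chain of the tubule's basement membrane. Sox9 was most like Trak1 (0.905, 0.896 and 0.918), Fam65a (0.897, 0.905 and 0.906) and Wipf3 (0.867, 0.936 and 0.816). The mean profile of the 10 genes was most like Pvrl2 (0.982, 0.961 and 0.946), Wnt6 (0.975, 0.932 and 0.943) and Lama1 (0.969, 0.925 and 0.98).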

How the data were processed

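Stranded libraries were made after removal of ribosomal RNA and sequenced as single reads, and the authors aligned them to mm10 with Novoalign and generated FPKM; the deposited values are FPKM, 1 table for each set. The authors tested differences with USeq and DESeq2. Here limma 3.58.1 (R 4.3.3) was run on log2(FPKM + 0.1) with the study's thresholds, since FPKM are not counts. The strand used in counting is not given in the sources used here. Libraries were grouped by their GEO labels alone.

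Genes entered the test when their mean across the 12 libraries of a set was 0.1 FPKM or more (22374 in the Zbtb16 and 21212 in the Sox3 table). A model of 4 group means was fitted (lmFit, eBayes with trend and robust), and the two-sided tests were corrected across all genes of a comparison (Benjamini-Hochberg). Genes were called at 1.5-fold or more with an adjusted p no higher than 0.05. Adding 0.1 makes the changes of low genes look smaller. For relative values, the mean log2 value of 20 other Sertoli genes was subtracted in each library. The fit was tested on simulated data. Nothing states that the 3 libraries of a group came from separate litters or days, so p-values measure the spread between pooled isolations. Deviations of same-numbered libraries correlated above 0.1 in all 3 pairs for both genotype comparisons of the Zbtb16 set (0.144 to 0.636), the null and cKO fractions (0.111 to 0.626), the WT labelled fractions, and cKO THY1+ against WT labelled KIT+, but not in the other comparisons. Intervals use the t quantiles of the fit.

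Mapped reads were estimated from the steps of low FPKM values and the exon lengths of the genes. Wt1 was matched by its Ensembl identifier in the Sox3 table, where its name was altered. The rule for named genes took the 10 genes in every comparison, Thy1, Kit, Zbtb16 and Sox3 as checks, the 2 to 4 called genes of each list with the largest change, and the 3 genes of most similar profile for Gdnf, Kitl, Amh, Sox9 and the mean. The value of 1 list gene is not reported here. The genes, lists and tests were chosen with earlier results of these data known. Alternatives were other pseudocounts, filters, scaling, fits of the compared groups alone, the replicate block, and leaving out each library.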

Additional observations from a re-analysis of the deposited data

How the results depend on the processing

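With the replicate number as a block, the genes called rose to 2 between null and WT THY1+ cells (Fshr and Inha), 4 in the interaction (Gata4, Kitl, Inha and Dhh), 1 in the interaction relative to other Sertoli genes, and 2 in cKO KIT+ against WT labelled THY1+ relative to them. Same-numbered libraries correlated at a mean of 0.400 (-0.0656 to 0.636) in the Zbtb16 set and 0.171 (-0.184 to 0.433) in the Sox3 set over 18 pairs each, and nothing in the labels says that a number marks a shared litter or day, so the pairing rests on these correlations. It changed no other call of a single gene as measured, apart from Gata4 between WT fractions (adjusted p = 0.0082), Sox9 between null and Dhh between cKO fractions, which were all gained. Centred on median-ratio scaling in place of the other Sertoli genes, 4 genes were called between WT and 9 between null fractions, 6 in the averaged cKO comparison and 5 in cKO KIT+ against WT labelled THY1+. Of all genes, 4734 and 6526 of 22374 were then called between these fractions, and 2213 and 3636 of 21212 in these cKO comparisons. Centred on the median of the other Sertoli genes, 5 genes were called between WT and 6 between null fractions, where 3846 and 11218 of 22374 genes were called. In cKO KIT+ against WT labelled THY1+ the count was then 0. A pseudocount of 1 left 3 of the 6 averaged cKO calls, where 1024 of all 21212 genes were called. Replicates 2 and 3 alone, an alternative chosen after the data were seen, left 3 calls between cKO fractions, 3 in cKO KIT+ against WT labelled THY1+ and 1 in THY1+ as labelled. In the first of these 2480 of all 21212 genes were then called, and 987 in cKO KIT+ against WT labelled THY1+. The cause was not tested.

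Signs turned for differences near 0: Wt1 in cKO THY1+ against WT labelled KIT+ was 0.0045 with median-ratio scaling and 0.52 in replicates 2 and 3, where Sox9 between cKO fractions was 0.042, Wt1 and Dhh in THY1+ as labelled were 0.23 and 0.15, and Sox9 in the same-marker difference was 0.14. Leaving out each library in turn gave 0 to 1 calls between null and WT THY1+ cells and in both forms of the interaction, 3 to 6 in the averaged cKO comparison (0 to 2 relative to other Sertoli genes), 1 to 2 between WT labelled fractions and 0 to 2 in cKO KIT+ against WT labelled THY1+, both relative, and 2 to 4 between cKO fractions relative.

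Without single libraries these log2 differences changed sign: Sox9 between WT fractions of the Zbtb16 set (-0.51 to 0.25), between WT labelled fractions (-0.14 to 0.20), between cKO fractions (-0.61 to 0.40) and in the same-marker difference (-0.56 to 0.45); Fshr between null and WT KIT+ (-0.20 to 0.049), between WT labelled fractions (-0.32 to 0.28), in THY1+ as labelled (-0.22 to 0.21) and in cKO THY1+ against WT labelled KIT+ (-0.22 to 0.38); Wt1 between WT labelled fractions (-0.36 to 0.16), in THY1+ as labelled (-0.47 to 0.16) and in cKO THY1+ against WT labelled KIT+ (-0.36 to 0.34); Amh between WT labelled fractions (-0.33 to 0.0085) and in the same-marker difference (-0.0073 to 0.56); Dhh in cKO THY1+ against WT labelled KIT+ (-0.093 to 0.50) and in THY1+ as labelled (-0.44 to 0.15); Kitl (-0.28 to 0.38) and Inhbb (-0.081 to 0.28) in THY1+ as labelled.

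Over all genes, a pseudocount of 1 moved the calls from 4737 to 2883 between WT fractions, 6532 to 4070 between null fractions, 890 to 565 and 58 to 25 between genotypes in THY1+ and KIT+ cells, and 2188 to 1024 in the averaged cKO comparison. It moved the interaction from 7 to 45. A filter at a mean of 1 FPKM moved the first 3 to 3139, 4332 and 468, and cKO THY1+ against WT labelled KIT+ from 15 to 9. The block gave 1980, 513 and 2756 calls for the genotypes in THY1+ and KIT+ cells and the interaction, and 29 for cKO THY1+ against WT labelled KIT+. Fits of the compared groups alone gave 2 in KIT+ cells (from 58) and 1 (from 15), and median-ratio scaling 2 in the interaction. Replicates 2 and 3 alone gave 2480 (from 4809) between cKO fractions, 597 in the averaged comparison, 987 (from 3608) in cKO KIT+ against WT labelled THY1+ and 3291 (from 5314) in KIT+ as labelled. The same-marker difference gave 1 and 3 calls with pseudocounts of 1 and 0.01. Relative to the other Sertoli genes, the 18762 calls between null fractions became 6526 with median-ratio scaling and 11218 with the median, and the 8817 of the interaction 2 with median-ratio scaling. Apart from leaving out libraries, 911 of the single-gene values kept direction and side of the threshold, 11 gained a call, 14 lost one and 6 changed sign. Few reads lay behind Sox9, Fshr, Amh and, in THY1+ cells, Gdnf, which limits their precision.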
